A study of Mus musculus with 8 samples.

Results

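The oligosaccharyltransferase is the enzyme complex of the endoplasmic reticulum (ER) that attaches the preassembled glycan to asparagine residues of new proteins, and the genes described here encode 10 of its subunits: Stt3a, Stt3b, Rpn1, Rpn2, Dad1, Ddost, Ostc, Krtcap2, Tusc3 and Magt1. They were chosen by gene symbol, using array features to which the platform annotation gives that symbol alone and, for a gene with several such features, the feature with the highest mean over all arrays. All 10 were measured, among 18820 genes in all. The measurements are 8 whole-transcript arrays of mouse pancreas on the C57BL/6J background, 4 labelled wild type and 4 labelled inducible Sel1L knockout. Both groups were homozygous for a Sel1l allele whose exon 6 lies between loxP sites, made in C57BL/6N stem cells, and both received tamoxifen in sunflower oil (5 mg/ml, 5 μl per g of body weight, intraperitoneally) once a day for 3 days at an age of 8 to 20 weeks. Knockout mice carried in addition an estrogen receptor-Cre fusion under an actin promoter, which their littermate controls lacked. Because that promoter is not specific to the pancreas and controls had no Cre, loss of Sel1L in the pancreas, its loss elsewhere and Cre activity cannot be told apart. The time from tamoxifen to tissue collection is not given in the sources used here. Nothing in the labels says whether each array is a separate mouse, so p-values measure the spread between these arrays.

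Sel1L is the adaptor of the Hrd1 ubiquitin ligase, which removes misfolded proteins from the ER. The oligosaccharyltransferase exists as a pair of related complexes, each built around its own catalytic subunit. The complex with STT3A sits at the Sec61 protein channel and glycosylates chains while they enter the ER, and the complex with STT3B acts on sites that were passed over, also after synthesis. RPN1, RPN2, DDOST, DAD1, OST4 and TMEM258 are shared by both complexes. OSTC and KRTCAP2 belong to the STT3A complex. TUSC3 and MAGT1 are alternative thioredoxin-like oxidoreductases of the STT3B complex. Acinar cells of the pancreas secrete large amounts of protein through this route.

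Values are log2 RMA values (robust multi-array average), for which a difference of 1 is a doubling. The array medians lay between 4.94 and 5.05. The targeted gene, Sel1l, changed by -0.76 in the knockout (SE 0.0788, limma adjusted p = 0.000196), without overlap between the groups. Acinar markers were at the top of the arrays' range, with the carboxypeptidase gene Cpa1 at 13.93 in wild type. The marker counts that follow stand against 16.1% of all genes called higher and 12.6% called lower at a limma adjusted p under 0.05. At an unadjusted p under 0.05, 4080 of the 18820 genes were higher and 3913 lower. Of 8 measured acinar markers 5 were lower in the knockout and 0 higher (limma, and 0 also at an unadjusted p under 0.05), and their mean level per array ranged from 12.85 to 13.01 in wild type and from 12.56 to 12.66 in knockout. Of 5 endothelial markers 2 were higher, with array means of 6.80 to 7.05 in wild type against 7.08 to 7.27 in knockout. Of 7 islet markers 1 was higher, and the array means overlapped, at 7.84 to 9.08 and 7.98 to 9.36. Of the markers of duct (4 measured), macrophages (8), fibroblasts (8) and adipocytes (4), none passed the limma threshold in either direction, and at an unadjusted p under 0.05 there were 2, 0, 0 and 1 higher and 0, 0, 1 and 0 lower. One array stood apart in its macrophage markers, wild type replicate 2, with a mean of 5.61 where the remaining wild type arrays had 7.54 to 8.38. The same array was the lowest in fibroblast and stellate markers, at 7.10 where the remaining wild type arrays had 8.26 to 8.65. In whole tissue, fewer cells of a type and less RNA per cell cannot be told apart, and the part of these shifts in the results that follow was not tested.

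The sequence just before the transcription start is shown for 4 subunit genes that were higher in the knockout (Stt3a, Stt3b, Rpn1 and Ddost) and, for contrast, for Magt1, whose difference did not pass the threshold. Each is the 250 bases before the start in RefSeq's annotation of GRCm38.p6, on the gene's strand. Capitals mark the CCAAT box, the binding motif of the factor NF-Y, and CCACG, the part of the ER stress element that ATF6 reads, each on either strand (ATTGG and CGTGG on the other).
Stt3a: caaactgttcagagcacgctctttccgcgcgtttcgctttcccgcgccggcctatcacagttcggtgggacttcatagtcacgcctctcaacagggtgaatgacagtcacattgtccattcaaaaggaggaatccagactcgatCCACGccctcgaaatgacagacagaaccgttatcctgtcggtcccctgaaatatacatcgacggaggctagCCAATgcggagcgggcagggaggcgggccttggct
Stt3b: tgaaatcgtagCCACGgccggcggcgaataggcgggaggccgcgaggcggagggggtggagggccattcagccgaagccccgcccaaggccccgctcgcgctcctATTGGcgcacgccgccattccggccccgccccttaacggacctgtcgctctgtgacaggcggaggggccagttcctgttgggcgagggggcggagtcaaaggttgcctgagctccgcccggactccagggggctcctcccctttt
Rpn1: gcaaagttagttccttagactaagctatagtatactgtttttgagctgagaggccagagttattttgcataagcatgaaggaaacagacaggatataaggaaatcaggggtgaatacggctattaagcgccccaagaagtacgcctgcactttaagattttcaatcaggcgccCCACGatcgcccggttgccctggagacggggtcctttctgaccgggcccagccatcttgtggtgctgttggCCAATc
Ddost: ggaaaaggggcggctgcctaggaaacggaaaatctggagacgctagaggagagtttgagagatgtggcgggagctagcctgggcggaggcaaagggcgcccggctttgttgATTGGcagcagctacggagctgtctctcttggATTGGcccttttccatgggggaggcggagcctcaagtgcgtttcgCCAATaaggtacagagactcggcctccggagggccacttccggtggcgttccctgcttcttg
Magt1: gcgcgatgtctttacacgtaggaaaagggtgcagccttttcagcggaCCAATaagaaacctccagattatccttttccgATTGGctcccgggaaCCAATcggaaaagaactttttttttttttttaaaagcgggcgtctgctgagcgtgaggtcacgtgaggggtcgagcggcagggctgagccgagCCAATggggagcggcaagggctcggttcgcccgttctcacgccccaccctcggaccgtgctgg
The windows are chr9:36767623-36767872 on the minus strand for Stt3a, chr9:115310469-115310718 on the minus strand for Stt3b, chr6:88084223-88084472 on the plus strand for Rpn1, chr4:138304488-138304737 on the plus strand for Ddost and chrX:106011803-106012052 on the minus strand for Magt1.

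RefSeq promoter sequence was at hand for 8 of the 10 genes, and Ostc and Tusc3 were the others. A CCAAT box was found in 7 of these 8 (Stt3a, Stt3b, Rpn1, Rpn2, Dad1, Ddost and Magt1), against 33.8% of all 32851 promoter windows and 34.7% of the 18155 windows of genes on the arrays. A gene counted if any of its windows held the motif, whereas the shares are of single windows. Rpn2 and Krtcap2 had 2 windows each, and Rpn2 held boxes in only 1 of them. Magt1 had 4 such boxes, Ddost and Rpn2 had 3 each, Dad1 had 2 that overlap, and Stt3a, Stt3b and Rpn1 had 1 each. The CCACG motif was found in 4 of the 8 (Stt3a, Stt3b, Rpn1 and Krtcap2), against 28.3% of all windows and 34.6% of those of genes on the arrays. Both motifs occurred in Stt3a, Stt3b and Rpn1, which were higher in the knockout. Ddost, also higher, held CCAAT boxes but no CCACG in this window. With windows extended to 50 bases after the start, both motifs were also found for Ddost, Dad1 and Krtcap2. The differences of Dad1 and Krtcap2 did not pass, so holding both motifs did not separate the genes called higher from the rest. The share of all windows that hold both motifs was not counted. In the windows before the start, each motif also occurred in genes whose difference did not pass, the CCAAT box in Magt1, Dad1 and Rpn2 and CCACG in Krtcap2. The full ER stress element, in which CCAAT and CCACG stand 9 bases apart and which therefore overlaps both, was found for 0 of the 8 genes and in 0.113% of all windows. The letters TGACGTG of the UPR (unfolded protein response) element and TGATGNAA of the composite site of C/EBP and ATF factors were also in 0 of the 8, against 1.65% and 3.45% of all windows. These are letter matches in a fixed window and show neither binding nor its absence.

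Of the 10 subunit genes 5 were higher in the Sel1L knockout group and the rest did not pass the test. The catalytic subunits Stt3a and Stt3b, the shared subunits Rpn1 and Ddost, and Ostc of the STT3A complex were higher in the knockout by 0.52 to 0.77 on the log2 scale, which is 1.43-fold to 1.70-fold (4 arrays a group). Rpn2, Dad1, Krtcap2, Tusc3 and Magt1 had differences of 0.08 to 0.30 that did not pass. In counts, 5 of 10 were called higher and 0 lower at a limma adjusted p under 0.05 (0 lower also at an unadjusted p under 0.05), where 28.7% of all genes tested were called, 16.1% as higher and 12.6% as lower. The median difference of the 10 was 0.41, against -0.04 over all genes. All 10 lay above the median level of the genes tested. The 9410 genes above that level, fitted alone, had 3013 called higher and 1163 lower, with a median difference of 0.13. The groups did not overlap, with knockout higher, for 7 of the 10, against 17.6% of all genes. Among all calls the share that was higher depended on the scaling, being 56.0% as deposited, 42.9% with quantile normalization, 36.3% with arrays set to a common median and 48.1% with cyclic loess. The same 5 subunit genes were called higher under each of these scalings.

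**Figure D1:**
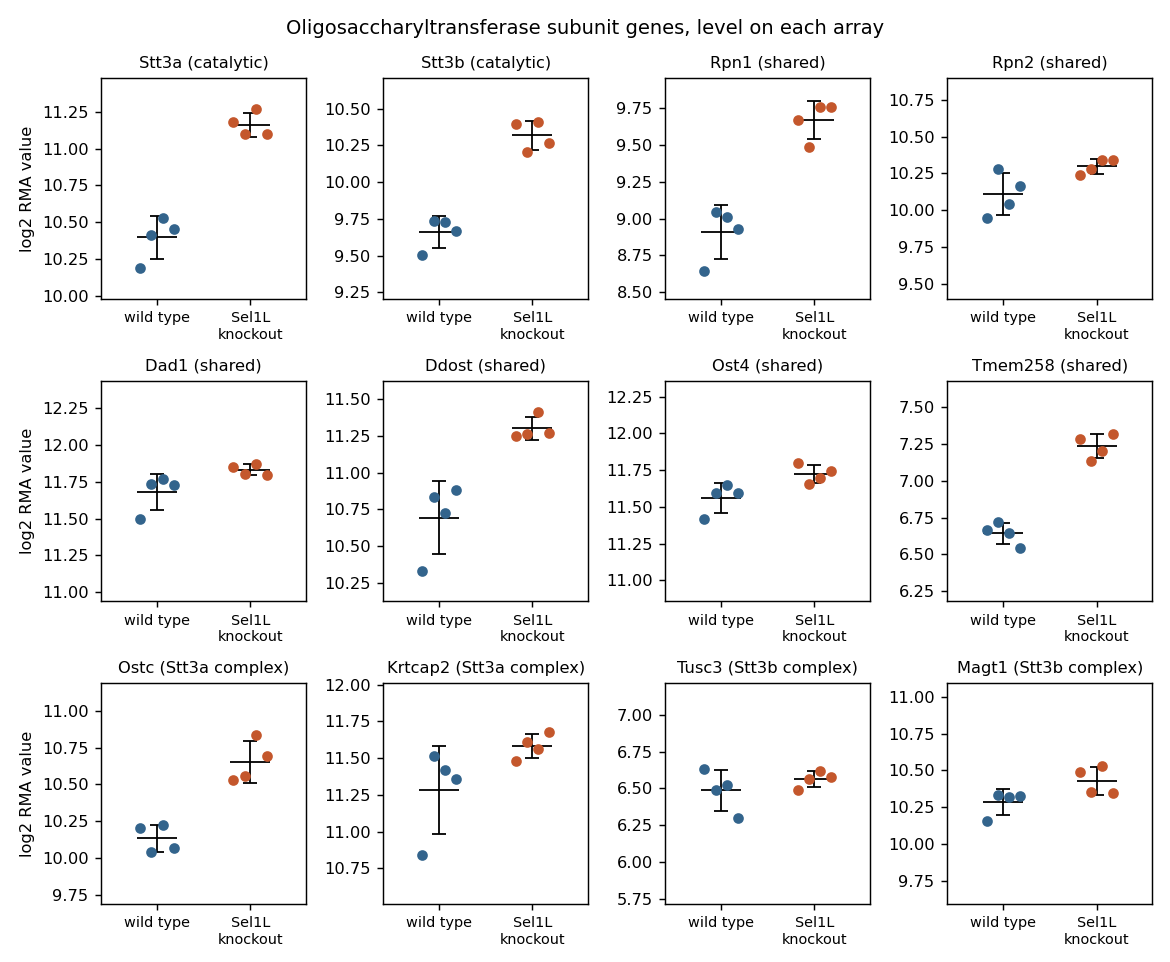
Log2 RMA values of the 10 subunit genes and the shared subunits Ost4 and Tmem258 on each array (points; 4 wild type in blue, 4 Sel1L knockout in orange), with group mean and SD (bars). Each y axis spans 1.5 log2 units; wild type and knockout points are clear of each other for Stt3a, Stt3b, Rpn1, Ddost, Ostc and Tmem258, and they overlap for Rpn2, Krtcap2 and Tusc3.

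The catalytic subunits both rose. Stt3a, which carries the active site of the co-translational complex, read 10.19, 10.41, 10.53 and 10.45 in wild type replicates 1 to 4 and 11.18, 11.10, 11.27 and 11.10 in knockout replicates 1 to 4. The highest wild type array thus lay below the lowest knockout array by more than the whole range of either group. The difference was 0.77 (SE 0.0922, 95% interval 0.56 to 0.97, limma adjusted p = 0.000436), a 1.70-fold rise. Stt3b, the catalytic subunit that acts on skipped sites, read 9.51, 9.73, 9.73 and 9.67 in wild type and 10.40, 10.21, 10.41 and 10.26 in knockout. These groups did not overlap either, and the difference was 0.66 (SE 0.0866, 95% interval 0.46 to 0.85, limma adjusted p = 0.000692), a 1.58-fold rise.

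Stt3b had a further feature on the array, and it went the other way. That feature, of lower mean signal, read 7.10, 7.18, 6.99 and 6.88 in wild type and 6.72, 6.74, 6.64 and 6.84 in knockout. The groups did not overlap, with the knockout lower by a narrow margin. When every feature was tested by itself its difference was -0.30 (SE 0.0879, limma adjusted p = 0.0307), in a test where 12.5% of all features were called lower. Averaging both features left Stt3b at 0.18 (adjusted p = 0.0926), which did not pass. Both features carry the same RefSeq transcript in the platform annotation, and which exons each one reads was not analysed here, so the rise of Stt3b is that of its brighter feature.

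**Figure D2:**
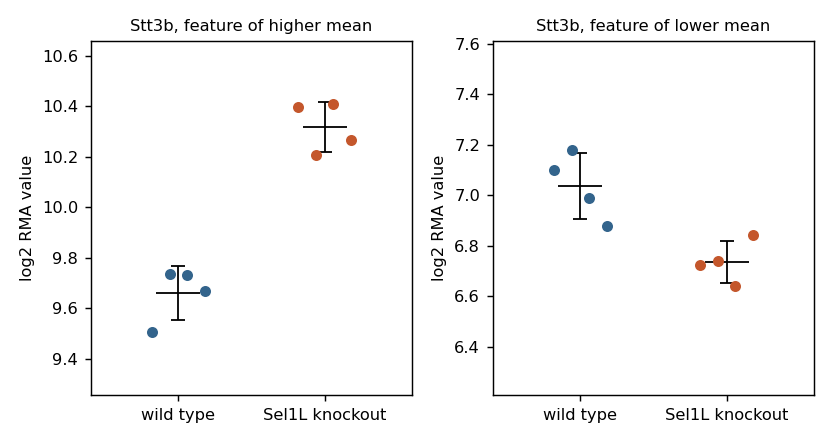
Log2 RMA values of the array features annotated to Stt3b (points are arrays; bars are group mean and SD; 4 arrays a group). The feature of higher mean rises from 9.66 to 10.32 and that of lower mean falls from 7.04 to 6.74; each y axis spans 1.4 log2 units.

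Of the shared subunits on the list, Rpn1 and Ddost rose while Rpn2 and Dad1 did not pass. Rpn1 encodes ribophorin I, which helps to bring some substrates to the catalytic subunit, and read 8.65, 9.05, 9.01 and 8.93 in wild type against 9.67, 9.49, 9.76 and 9.76 in knockout. All knockout arrays were above all wild type arrays. The difference was 0.76 (SE 0.109, 95% interval 0.52 to 1.01, limma adjusted p = 0.00112), or 1.70-fold. Ddost, the gene of the OST48 subunit, read 10.33, 10.83, 10.73 and 10.88 in wild type and 11.25, 11.27, 11.42 and 11.27 in knockout. Its groups were apart as well, although wild type replicate 1 lay well below its group. The difference was 0.61 (SE 0.121, 95% interval 0.34 to 0.88, limma adjusted p = 0.0058), or 1.52-fold.

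Rpn2, which encodes ribophorin II, read 9.95, 10.28, 10.04 and 10.17 in wild type and 10.24, 10.28, 10.34 and 10.34 in knockout. Wild type replicate 2 reached the knockout values, and the difference of 0.19 did not pass (95% interval -0.01 to 0.39, limma adjusted p = 0.129). Dad1, a small membrane subunit first known for its role in cell survival, read 11.50, 11.74, 11.77 and 11.73 in wild type and 11.85, 11.80, 11.87 and 11.80 in knockout. The groups did not overlap, but the gap was narrow and the difference of 0.15 did not pass (95% interval -0.03 to 0.33, limma adjusted p = 0.194). It was smaller without wild type replicate 1, at 0.0881 (adjusted p = 0.375), and with arrays set to a common median or quantile normalized, at 0.0727 and 0.0432. The upper bounds of Rpn2 and Dad1 lay below the differences of Rpn1, 0.76, and Ddost, 0.61. The interval of Ddost, 0.34 to 0.88, still overlapped that of Rpn2, while that of Rpn1, 0.52 to 1.01, overlapped neither. Whether shared subunits differ from each other in their change was not tested.

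Of the shared subunits outside the list, Tmem258 rose and Ost4 did not pass. Tmem258 read 6.66, 6.72, 6.64 and 6.54 in wild type and 7.28, 7.13, 7.21 and 7.32 in knockout, with groups apart. Its difference was 0.59 (SE 0.0776, limma adjusted p = 0.000685). Ost4, the smallest subunit, read 11.41, 11.60, 11.65 and 11.59 in wild type and 11.80, 11.66, 11.70 and 11.74 in knockout, and its difference of 0.16 did not pass (95% interval -0.02 to 0.34, adjusted p = 0.154). Over all 12 subunit genes, 6 rose and 0 fell (limma), against 16.1% of all genes called higher and 12.6% called lower. On the deposited values all 12 differences were above 0 with the feature of highest mean, while the dimmer Stt3b feature was at -0.30. The 9410 genes above the median level, fitted alone, had a median difference of 0.13. The sign of Tusc3 turned after quantile normalization and cyclic loess.

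**Figure D3:**
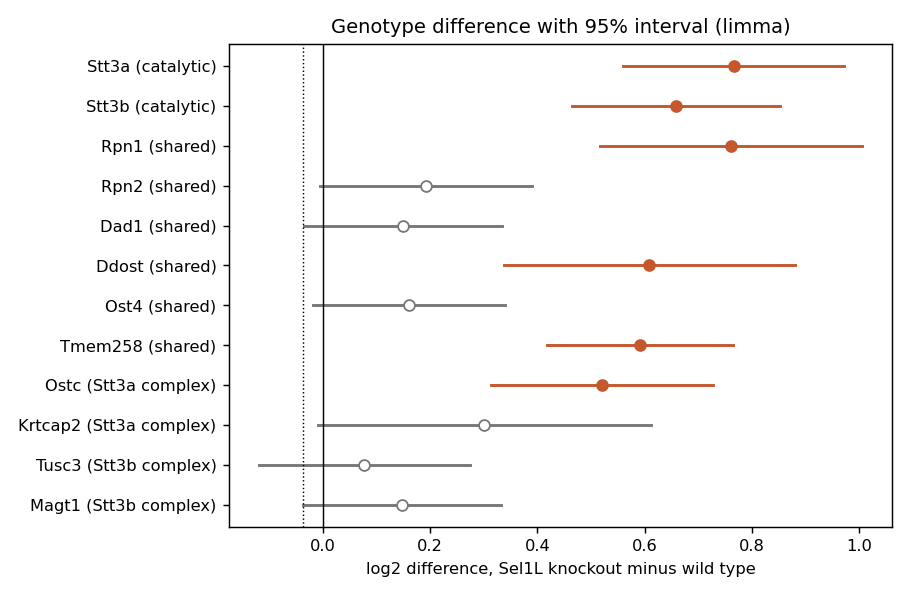
Log2 difference, Sel1L knockout minus wild type, for 12 oligosaccharyltransferase subunit genes with 95% intervals from limma (filled orange, called higher; open grey, not called; 4 arrays a group). The solid line marks 0 and the dotted line the median of all genes, -0.04; the called genes lie between 0.52 and 0.77.

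In the STT3A complex Ostc rose and Krtcap2 did not pass. Ostc, whose product helps to tie the complex to the protein channel, read 10.20, 10.04, 10.22 and 10.06 in wild type and 10.53, 10.56, 10.83 and 10.69 in knockout, without overlap. The difference was 0.52 (SE 0.0926, 95% interval 0.31 to 0.73, limma adjusted p = 0.00332), or 1.43-fold. Krtcap2 read 10.84, 11.51, 11.42 and 11.36 in wild type and 11.48, 11.61, 11.56 and 11.68 in knockout. Wild type replicate 1 stood far below the rest, wild type replicate 2 lay within the knockout values, and the difference of 0.30 did not pass (95% interval -0.01 to 0.61, adjusted p = 0.128). Without wild type replicate 1 the difference of Krtcap2 was 0.15 (adjusted p = 0.199).

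In the STT3B complex neither oxidoreductase passed. Tusc3 read 6.63, 6.49, 6.52 and 6.30 in wild type and 6.49, 6.56, 6.62 and 6.58 in knockout, so the groups overlapped fully. Its difference was 0.08 (95% interval -0.12 to 0.27, limma adjusted p = 0.52), and the sign turned after quantile normalization (-0.0883) and cyclic loess (-0.0607). Single wild type arrays moved it too, to 0.0142 without replicate 4 (adjusted p = 0.905) and 0.126 without replicate 1 (adjusted p = 0.300). Magt1 read 10.15, 10.33, 10.32 and 10.33 in wild type and 10.49, 10.35, 10.53 and 10.34 in knockout. Its groups were apart by a very small gap, and the difference of 0.15 did not pass (95% interval -0.04 to 0.33, limma adjusted p = 0.198). On the deposited values the intervals allow a rise of up to 0.27 for Tusc3 and 0.33 for Magt1.

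Pairs of subunits were compared within each array, by taking the log2 value of the first gene minus that of the second and testing whether this differed between genotypes (exact two-sided permutation tests, adjusted over the 3 pairs). The smallest raw p that 4 against 4 can give is 0.0286. After adjustment, a pair at 0.0286 passes 0.05 only if another pair also reaches it, so a single differing pair could not pass. For Stt3a minus Stt3b the knockout was higher by 0.11 (95% interval from limma -0.05 to 0.27, exact p = 0.0571, adjusted 0.171). A larger rise of Stt3a than of Stt3b was not shown with the brighter Stt3b feature. With the average of both Stt3b features the difference was 0.59 (raw exact p = 0.0286, not adjusted). For Ostc minus Krtcap2 it was 0.22 (95% interval -0.15 to 0.59, exact p = 0.314, adjusted 0.471). Without wild type replicate 1 that difference was 0.39 (raw exact p = 0.0286, not adjusted, the smallest that 3 against 4 can give). For Tusc3 minus Magt1 it was -0.07 (95% interval -0.33 to 0.18, exact p = 0.629, adjusted 0.629), and it turned to 0.022 without wild type replicate 1.

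The subunit genes also shared the arrays on which they were low or high within a genotype. Wild type replicate 1 was the lowest wild type array for 8 of the 10 genes, all but Ostc and Tusc3. It was the lowest for 24.8% of all genes and for 31 of the 54 other N-glycosylation and translocation genes on the lists used here, Ost4 and Tmem258 included. Knockout replicate 3 was the highest knockout array for 7 of the 10, against 24.8% of all genes and 27 of those 54. The mean over the 10 genes of each gene's deviation from its own average was -0.38 on wild type replicate 1 and -0.13 to -0.19 on the other wild type arrays. It was 0.15 to 0.29 on the knockout arrays, the highest being replicate 3. Leaving out wild type replicate 1 lowered the median difference of the 10 from 0.41 to 0.32, and the same 5 genes were called higher. They were also called without wild type replicate 2 and without knockout replicate 3.

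**Figure D4:**
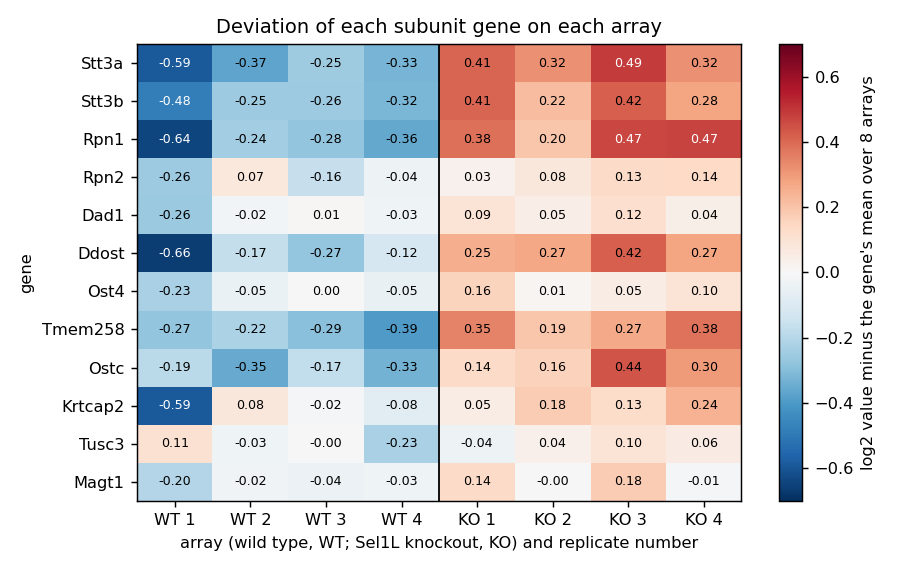
Deviation of 12 oligosaccharyltransferase subunit genes from their own mean over the 8 arrays, in log2 units (rows, genes; columns, arrays; blue below and red above the mean). Wild type replicate 1 holds the lowest values for most genes, such as Ddost, whose level was 10.33 there and 10.73 to 10.88 on the remaining wild type arrays.

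The other steps of N-glycosylation were described by lists of genes, whose counts stand against 16.1% of all genes called higher and 12.6% called lower. Among the 9410 genes above the median level, fitted alone, 3013 were called higher and 1163 lower, with a median difference of 0.13. The supply of dolichol, the lipid carrier, and of activated mannose was covered by 14 genes. Of these, 9 rose and 0 fell (limma; 0 lower also at an unadjusted p under 0.05), with a median difference of 0.40. Dpm2, a subunit of dolichol-phosphate mannose synthase, rose by 1.03 (SE 0.0877, adjusted p = 7.53e-05), from 8.33 to 9.36. Dhdds, a subunit of the enzyme that makes the dolichol chain, rose by 0.81 (SE 0.112, adjusted p = 0.000916). The assembly of the glycan on that carrier was covered by 12 measured genes. Here 9 rose and 0 fell (0 lower also at an unadjusted p under 0.05), with a median of 0.47. The mannosyltransferase gene Alg12 rose by 1.42 (SE 0.0801, adjusted p = 8.22e-06), and the glucosyltransferase gene Alg6 by 0.75 (SE 0.116, adjusted p = 0.00159).

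After transfer, glucose and mannose residues are trimmed while lectin chaperones hold the protein. Of 15 genes of this step 9 rose and 1 fell, with a median of 0.32. Pdia3, a disulfide isomerase that works with the lectins calnexin and calreticulin, rose by 1.03 (SE 0.102, adjusted p = 0.000159). Engase, a cytosolic enzyme that cleaves free glycans, rose by 0.77 (SE 0.0898, adjusted p = 0.000382) on its brighter feature and by 0.34 (adjusted p = 0.0133) with the mean of both its features. Edem2, which starts mannose trimming for ER-associated degradation, fell by 0.42 (SE 0.0725, adjusted p = 0.00294). Among 11 genes of the protein channel next to the transferase, 6 rose and 1 fell, with a median of 0.34. Sec61g and Sec61a1, subunits of the Sec61 channel, rose by 0.54 (SE 0.0943, adjusted p = 0.00308) and 0.36 (SE 0.0685, adjusted p = 0.00488). Sec62, which serves post-translational entry, fell by 0.62 (SE 0.0918, adjusted p = 0.0013). The median over the 10 subunit genes, 0.41, lay within the range of these list medians, 0.32 to 0.47, and whether they differ from the neighbouring steps was not tested.

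**Figure D5:**
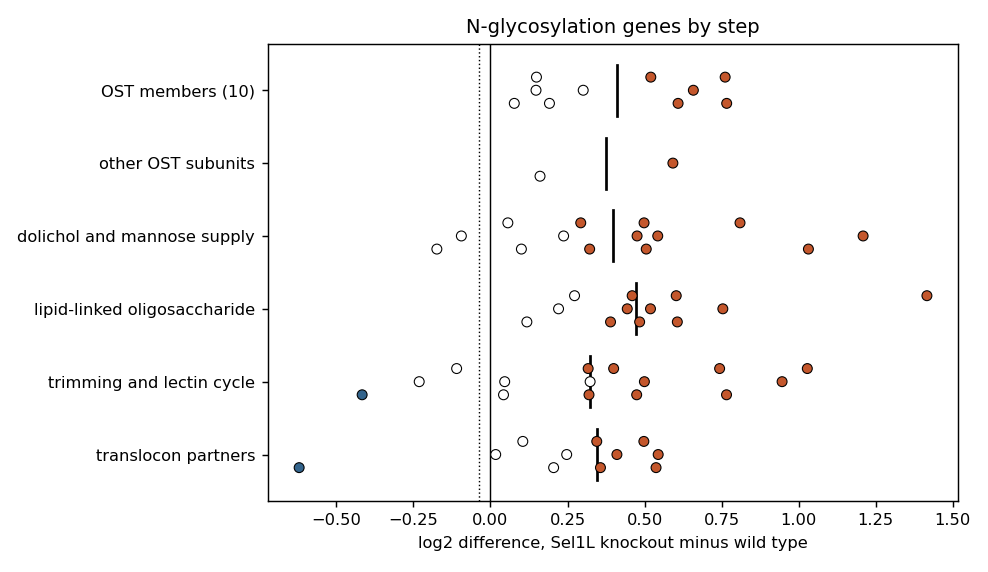
Log2 difference, Sel1L knockout minus wild type, of the genes of each N-glycosylation step and of the translocon (points are genes; orange, called higher; blue, called lower; white, not called at a limma adjusted p under 0.05; black bars, list medians). The solid line marks 0 and the dotted line the median of all genes, -0.04; list medians lie between 0.32 and 0.47, the 2 other subunits having 0.38.

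Genes with the most similar pattern were sought among 9222 others of at least median level, by the root mean square distance of their centred log2 values from the average of the 10 subunit genes over the 8 arrays. The nearest were Akap8 (distance 0.0334), a nuclear anchoring protein of protein kinase A, Pomt2 (0.0352), a protein O-mannosyltransferase of the ER, Arf4 (0.0398), a GTPase of vesicle transport at the Golgi, Ide (0.0408), the insulin-degrading enzyme, and Ptprb (0.0423), a receptor phosphatase of endothelium. Pomt2 read 7.38, 7.58, 7.54 and 7.57 in wild type and 7.98, 7.87, 8.05 and 7.99 in knockout, with the same low wild type replicate 1 as the subunit genes. These genes were picked for their likeness to the average over the same arrays. Their own differences of 0.36 to 0.46 and the low wild type replicate 1 of Pomt2 follow from that choice and are a description. Of the subunit genes themselves Stt3b was the nearest to the average (0.129) and Tusc3 the farthest (0.221).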

How the data were processed

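The deposited table holds log2 values of 35556 features made by the authors with RMA, per the submitters' processing notes. Its version, chip definition and genome build are not stated in the labels, and log2 is inferred from RMA and the range of 0.964 to 14.4. GEO's platform annotation gave 21218 features a single symbol; checking these through Entrez identifiers against RefSeq changed 0 symbols. Genotype was fitted on 18820 genes with limma 3.58.1 (lmFit, eBayes, 6 residual degrees of freedom) in R 4.3.3, with Benjamini-Hochberg adjustment over all of them and a threshold of 0.05. No filter on dim genes was applied. Subunit pairs were compared by exact permutation. The subunit genes, the lists and the tests were chosen with earlier results of these data known. Named genes were all subunits, Sel1l, the 2 called genes of smallest p per direction in each list, and the 5 nearest profiles; Cpa1 was named as a tissue check after its value was seen. The computation was tested on simulated data. Promoter letters were searched in RefSeq windows. The number of arrays limits the precision. Figures were drawn with matplotlib 3.10.9.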

Additional observations from a re-analysis of the deposited data

Results flagged for a closer look

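In 6 of 56 groups of 4 arrays (28 genes) an array lay far from the others of its group, by a criterion that chance meets in about 1 in 20 groups. Among the subunit genes these were Dad1 on wild type replicate 1 (11.50, against 11.73 to 11.77 on the others), Magt1 on the same array (10.15, against 10.32 to 10.33) and Ddost on knockout replicate 3 (11.42, against 11.25 to 11.27). The others were Sel1l on knockout replicate 4 (11.45, against 11.66 to 11.70), Sec61g on wild type replicate 4 (9.68, against 9.90 to 9.94) and Arf4 on knockout replicate 3 (10.75, against 10.60).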

How the results depend on the processing

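The 5 subunit genes called higher passed in every scaling, filter, variance and array-weight setting and without each array in turn; the exception was Stt3b, at 0.18 with the mean of all features and -0.30 on its dimmer feature, so that testing every feature called 1 lower. Over the settings on the same feature, the adjusted p ranged up to 0.00312 for Stt3a, 0.00594 for Stt3b, 0.0059 for Rpn1, 0.0216 for Ddost and 0.0125 for Ostc. Tusc3 turned to -0.0883 (quantile normalization) and -0.0607 (cyclic loess). Other differences that did not pass also shrank with another scaling, to 0.115 and 0.108 for Rpn2 and 0.0712 and 0.0698 for Magt1 (median centring and cyclic loess), 0.19 for Krtcap2 (quantile normalization) and 0.0528 and 0.0843 for Ost4 (quantile normalization and median centring). Counts of higher genes fell under the 3 scalings, from 9 to between 6 and 7 for dolichol and mannose supply and for glycan assembly, from 9 to between 7 and 8 for trimming, and from 6 to between 5 and 6 for the translocon; without each array in turn they were 7 to 9 for the first 3 lists and 4 to 6 for the translocon, where 4 was without knockout replicate 3. Counts of lower genes moved for dolichol and mannose supply, to 1 (quantile normalization and cyclic loess), and for trimming and the lectin cycle, from 1 to 2 (all 3 scalings, genes above the median level, trend and robust variance). Stt3a minus Stt3b was 0.59 with the mean of all features. Without each array in turn, Ostc minus Krtcap2 ranged from 0.11 to 0.39, Tusc3 minus Magt1 from -0.148 to 0.022 and Stt3a minus Stt3b from 0.09 to 0.13. With promoter windows extended 50 bases past the start, 6 subunit genes in place of 4 held CCACG and 8 in place of 7 a CCAAT box. Of all windows of that length, 32.8% held CCACG and 37.4% a CCAAT box. For windows of genes on the arrays these shares were 39.6% and 37.5%. The cause of the changes between settings was not tested. Deviations of same-numbered arrays from their group means had correlations of 0.222, 0.153, -0.273 and -0.02 for replicates 1 to 4. These differ in sign, and no correlations of differently numbered arrays are set beside them. The replicate number as a block left the 5 subunit calls in place (Stt3a limma adjusted p = 0.00312). It gave 2680 genes higher and 1998 lower, against 3027 and 2379 without it. For the pairs, a sign-flip over replicate numbers gave exact p of 0.125, 0.375 and 0.75, where 4 numbers cannot go below 0.125.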
